A study of Mus musculus with 12 samples.

Results

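The complement and coagulation genes of the liver were described in mice with and without a knockdown of Grb14. The list names 51 genes made by hepatocytes or by macrophages and other cells of the liver. It was drawn up by what the genes encode, with earlier results of these data known. A gene was measured where the array's annotation pairs a probe set with that symbol alone, and of several such probe sets the brightest on average was taken. This gave 48 of the 51 genes, out of 19938 genes in all. Klkb1 shares its probe set with another symbol, and C3 and Cpb2 were not analysed here.

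All 12 animals were C57Bl/6J mice that received an adenovirus by vein at 10 weeks of age and whose livers were taken 7 days later without fasting. In 6 of them the virus carried a scrambled short hairpin RNA (sh scramble), and in the other 6 it carried a hairpin against Grb14 (sh Grb14), an adapter protein that binds and inhibits the activated insulin receptor. The question is what a lower Grb14 level does to gene expression in the liver. Each liver gave 1 Affymetrix whole-transcript array. Both groups carry virus and hairpin, livers without virus were not analysed here, and the labels name 1 hairpin per group, so an effect of the hairpin other than on Grb14 cannot be told apart from the knockdown.

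Complement is a cascade of plasma proteins that marks and lyses microbes. It is started by C1q bound to antibody, by mannose-binding lectins bound to sugars, or by the alternative pathway, and it ends in a pore, the membrane attack complex. Clotting factors are likewise zymogens that activate each other in turn until thrombin makes fibrin, while protein C, antithrombin and others hold them back and plasmin dissolves the clot. Hepatocytes make most of these plasma proteins, whereas C1q, properdin and the receptors for complement fragments come mainly from macrophages and other myeloid cells.

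Grb14 (probe set 10483163) lay at log2 levels of 10.08 to 10.25 (median 10.14) in sh scramble livers and 8.02 to 8.44 (median 8.23) in sh Grb14 livers, so the labels hold in every mouse. It fell by 1.91 (SE 0.059; 3.75-fold lower). The array medians lay between 7.06 and 7.17, and across probe sets, which are not independent, the correlation between arrays was 0.990 to 0.997 within a group and 0.959 to 0.972 between groups. All levels below are log2 values, and a change is the sh Grb14 mean minus the sh scramble mean with its standard error (SE), n = 6 mice per group. A gene passed when its limma p, adjusted by Benjamini-Hochberg over all 19938 genes, was under 0.05. In the whole series 65.3% of genes passed, with 25.8% higher and 39.5% lower, and the median change was −0.10. Mice are numbered 1 to 6 within each group in the order they are listed, and the numbers pair no mice.

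The complement and coagulation genes split by the cell that usually makes them. That cell was assigned to each gene from general knowledge, with earlier results of these data known. Of the 48 measured, 45 passed (93.8%, against 65.3% of all genes, and against 78.1% of the 9969 genes above the median level). Of these, 33 were lower in sh Grb14 livers (68.8%, against 39.5%) and 12 were higher (25%, against 25.8%). The median change was −0.36. All 31 genes past the test among the 34 made mainly by hepatocytes were lower, with a median change over the 34 of −0.54. All 8 genes of myeloid cells were higher, with a median of 1.52. Of 6 genes made by endothelial, stromal or several cell types, 4 were higher and 2 lower. The levels of the 2 groups of mice did not overlap in 42 of the 48 genes (87.5%, against 41.2% of all genes), of which 11 were higher (20.3% of all genes did so) and 31 lower (20.8%). Changes of at least 2-fold were found in 11 genes that rose (6.37% of all genes did so) and 8 that fell (2.65%). Counts by role and by marker list below are to be read beside these shares.

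**Figure D1:**
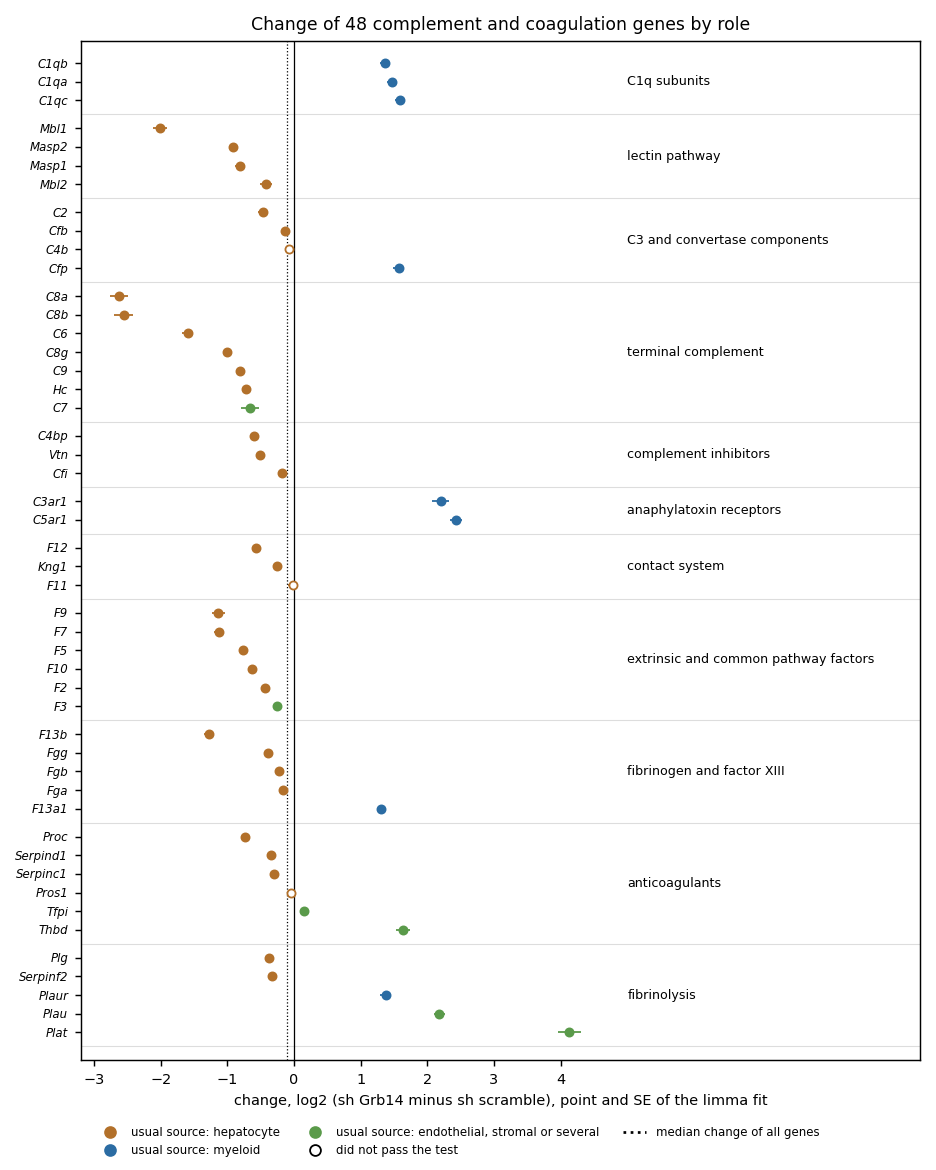
Change of the 48 measured genes on the log2 scale (horizontal axis), with the SE of the limma fit, grouped by role and coloured by the cell that usually makes the protein. The 8 myeloid genes all lie to the right of 0, the 34 hepatocyte genes all lie to its left, and open points mark C4b, F11 and Pros1, which did not pass the test.

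The 3 chains of C1q, the antibody-binding starter of the classical pathway, rose together. C1qa (probe set 10517517) lay at 9.30 to 9.71 (median 9.46) in sh scramble livers and 10.78 to 11.11 (median 10.93) in sh Grb14 livers, and it rose by 1.47 (SE 0.073; 2.78-fold). C1qb (10517508) lay at 11.29 to 11.74 (median 11.38) with sh scramble and at 12.67 to 12.97 (median 12.82) with sh Grb14, and it rose by 1.36 (SE 0.074; 2.57-fold). C1qc (10517513) lay at 10.53 to 10.97 (median 10.68) with sh scramble and at 12.21 to 12.46 (median 12.32) with sh Grb14, and it rose by 1.59 (SE 0.072; 3.02-fold). For each chain the lowest sh Grb14 mouse stood well above the highest sh scramble mouse (limma adjusted p = 2.02e-11, 6.94e-11 and 7.09e-12). The genes are direct neighbours in the genome and their proteins assemble into 1 molecule. Their changes were close but not equal: C1qc rose by 0.23 (SE 0.037) more than C1qb, by an exact permutation test of the log2 ratio in each mouse (p = 0.00216, the smallest that 12 mice in 2 groups of 6 allow; adjusted over 18 gene pairs p = 0.00354). The 18 pairs were chosen after their values were seen, so these p describe the mice and are no independent evidence.

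Because C1qb and C1qc moved together, the bases just before their starts are shown, from RefSeq's GRCm38.p6 (chr4:136886201-136886410, minus strand, and chr4:136892937-136893124, minus strand). Capitals mark GAGGAA or its reverse complement, the core of sites for PU.1, a transcription factor of myeloid cells. Among the 7 myeloid genes with an entry in the promoter table, 4 hold it within 250 bases before the start, against 23.3% of all 32851 entries. A gene counts once if any of its entries holds the letters. Shares of genes and of entries therefore have unlike units, here and below.
C1qb: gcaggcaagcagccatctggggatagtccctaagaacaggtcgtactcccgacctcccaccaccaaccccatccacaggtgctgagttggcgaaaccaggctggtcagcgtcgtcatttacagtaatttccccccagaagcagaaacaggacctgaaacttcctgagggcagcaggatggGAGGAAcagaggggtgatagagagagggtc
C1qc: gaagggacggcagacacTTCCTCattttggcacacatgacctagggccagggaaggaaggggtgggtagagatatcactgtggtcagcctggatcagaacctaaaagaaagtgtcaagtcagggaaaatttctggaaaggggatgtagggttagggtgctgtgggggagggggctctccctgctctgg
The match lies 30 bases before the start in C1qb and reads in reverse at 193 bases before it in C1qc. Distances are counted from the start in the promoter table, and the C1qc sequence shown ends 22 bases before that start. The other myeloid genes with a match are F13a1 and Plaur, and 2 of 29 hepatocyte-made genes have one, F7 and Fgb. Such a match is a description of the letters and not a site.

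Properdin and the listed receptors for C3a and C5a, C3ar1 and C5ar1, rose as well. Cfp (10603860), which encodes properdin, the stabiliser of the alternative convertase, lay at 9.85 to 10.27 (median 10.05) with sh scramble and at 11.45 to 11.83 (median 11.59) with sh Grb14, and it rose by 1.57 (SE 0.078; 2.97-fold). C3ar1 (10547657), the receptor for C3a, lay at 8.32 to 9.10 (median 8.70) with sh scramble and at 10.42 to 11.05 (median 10.99) with sh Grb14, and it rose by 2.20 (SE 0.13; 4.6-fold). C5ar1 (10560242), the receptor for C5a on neutrophils and macrophages, lay at 6.32 to 6.66 (median 6.5) with sh scramble and at 8.54 to 9.12 (median 8.96) with sh Grb14, and it rose by 2.43 (SE 0.089; 5.40-fold). No sh Grb14 mouse reached down to the sh scramble range in any of these genes (limma adjusted p = 2.17e-11, 1.21e-10 and 5.81e-13). The changes of the receptors differed by 0.23 (SE 0.099), which did not pass over the 18 pairs (exact permutation p = 0.0455; adjusted p = 0.0584). C3ar1 had 1 low sh Grb14 mouse, number 2, and the other 5 lay between 10.96 and 11.05. Outside the list, C5ar2, a further receptor for C5a, had a change of 0.00065 (SE 0.058; limma adjusted p = 0.993) and Vsig4, a receptor for C3 fragments on Kupffer cells, one of 0.22 (SE 0.12; limma adjusted p = 0.115), and neither passed. C5ar2 passed as lower with arrays centred on the median of the genes tested (−0.15; limma adjusted p = 0.0162), and Vsig4 as higher without sh scramble mouse 5 (0.31; limma adjusted p = 0.0186).

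These rises came in livers where markers of inflammatory cells were higher. The mean log2 level of 8 measured of 10 markers of monocytes and recruited macrophages lay between 7.56 and 7.77 in sh scramble and between 9.36 and 9.81 in sh Grb14 livers, and all 8 rose. Markers of neutrophils lay between 6.27 and 6.41 and between 7.33 and 7.72, with 6 of 8 higher and 2 not past the test. Those of Kupffer cells lay between 8.43 and 8.73 and between 8.97 and 9.16. There 3 of 8 rose (Cd5l, Adgre1 and Folr2) and 5 did not pass, among them the resident markers Clec4f and Timd4. No value is 0 on this scale, and no detection call was made. In whole liver, more cells of a type and more RNA per cell cannot be told apart, nor can fewer cells and less RNA, and the part of these markers in the changes was not tested.

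**Figure D2:**
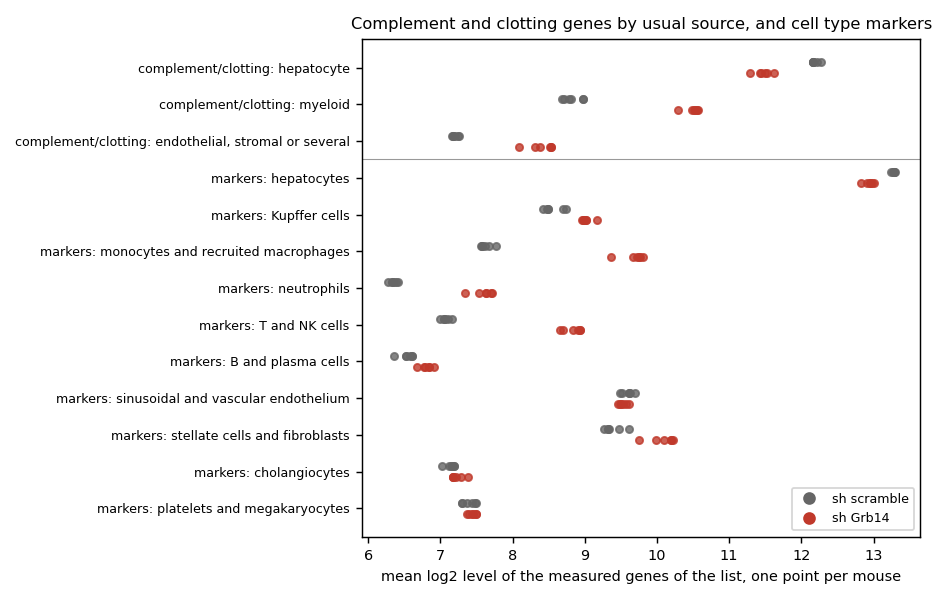
Mean log2 level over the measured genes of a list (horizontal axis), with 1 point per mouse, for the complement and clotting genes by usual source (top) and for cell type markers. Grey and red points are apart for the hepatocyte, myeloid and mixed-source genes and for markers of hepatocytes, Kupffer cells, monocytes, neutrophils, T and NK cells, B and plasma cells and stellate cells, and they overlap for endothelial, cholangiocyte and platelet markers.

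All 4 genes of the lectin pathway fell, Mbl1 the furthest, where 39.5% of all genes and 91.2% of the 34 hepatocyte-made genes fell. Mbl1 (10414211), a mannose-binding lectin that recognises sugars on microbes, lay at 11.47 to 11.74 (median 11.52) with sh scramble and at 9.26 to 9.95 (median 9.53) with sh Grb14, and it fell by 2.01 (SE 0.1; 4.03-fold lower). Masp2 (10510399), the protease that lectins use to cleave C4 and C2, lay at 12.01 to 12.12 (median 12.06) with sh scramble and at 10.95 to 11.38 (median 11.13) with sh Grb14, and it fell by 0.91 (SE 0.055; 1.88-fold lower). Both groups were separate in every mouse (limma adjusted p = 3.48e-11 and 2.31e-10). Masp1, the protease that activates Masp2, fell by 0.81 (SE 0.071). The other lectin, Mbl2, moved much less: it lay at 10.28 to 10.52 (median 10.47) and 9.62 to 10.30 (median 10.03), the groups overlapped in range, and it fell by 0.42 (SE 0.093). Mbl1 fell by 1.59 (SE 0.10) more than Mbl2 (exact permutation p = 0.00216; adjusted over 18 pairs p = 0.00354). The difference between the changes of Masp1 and Masp2, 0.10 (SE 0.10), did not pass (exact permutation p = 0.353).

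The genes for the convertases, the proteases that cleave C3 and C5, changed less, apart from Cfp. C2 (10450344), the protease subunit of the classical convertase, lay at 10.57 to 10.89 (median 10.62) with sh scramble and at 10.03 to 10.49 (median 10.22) with sh Grb14, and it fell by 0.46 (SE 0.078; 1.38-fold lower). Cfb, its counterpart in the alternative pathway, fell by 0.13 (SE 0.029), with groups that did not overlap by a narrow margin (12.48 to 12.55, and 12.31 to 12.43). C4b (10450242), the classical pathway component, lay at 12.34 to 12.56 (median 12.46) in sh scramble and 12.27 to 12.54 (median 12.38) in sh Grb14 livers and did not pass (change −0.08, SE 0.045; limma adjusted p = 0.148). Without sh Grb14 mouse 2 it passed, at −0.11 (adjusted p = 0.0314). C4a is a near-identical copy, which fell by 0.63 (SE 0.088), and the probe sets can share signal.

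All 7 genes of the membrane attack complex fell, and C8a and C8b fell furthest of the 48 genes. Of all genes 39.5% fell, and of the 34 hepatocyte-made genes 91.2%. C8a (10514763), the pore-forming alpha chain, lay at 11.98 to 12.30 (median 12.04) with sh scramble and at 8.94 to 10.03 (median 9.53) with sh Grb14, and it fell by 2.62 (SE 0.14; 6.16-fold lower). C8b (10506454), the beta chain, lay at 12.68 to 12.98 (median 12.77) with sh scramble and at 9.71 to 10.83 (median 10.32) with sh Grb14, and it fell by 2.56 (SE 0.14; 5.89-fold lower). C8g (10480751), the small lipocalin-like gamma chain, lay at 13.02 to 13.06 (median 13.06) with sh scramble and at 11.85 to 12.13 (median 12.11) with sh Grb14, and it fell by 1.0 (SE 0.045; 2.01-fold lower). Every sh Grb14 mouse lay far below every sh scramble mouse in all 3 genes (limma adjusted p = 4.08e-11, 6.55e-11 and 6.42e-12). C8a and C8b fell by 1.62 (SE 0.14) and 1.55 (SE 0.14) more than C8g (exact permutation p = 0.00216 each; adjusted over 18 pairs p = 0.00354). The difference between C8a and C8b, 0.064 (SE 0.060), did not pass (exact permutation p = 0.329). C8a and C8b are direct neighbours in the genome, and C8g lies on another chromosome.

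The upstream sequences of the C8 genes are shown because the chains of this complex moved unequally. They are from RefSeq's GRCm38.p6 (chr4:104876488-104876608, minus strand; chr4:104766107-104766316, plus strand; chr2:25501778-25501929, minus strand, the first of 2 entries). Capitals mark GTTAAT or its reverse complement, the half-site of the hepatocyte factor HNF1. It occurs within 250 bases before the start in 8 of the 29 hepatocyte-made genes with an entry and in 6.43% of all entries.
C8a: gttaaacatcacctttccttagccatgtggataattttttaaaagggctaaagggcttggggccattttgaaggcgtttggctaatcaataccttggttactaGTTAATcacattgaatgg
C8b: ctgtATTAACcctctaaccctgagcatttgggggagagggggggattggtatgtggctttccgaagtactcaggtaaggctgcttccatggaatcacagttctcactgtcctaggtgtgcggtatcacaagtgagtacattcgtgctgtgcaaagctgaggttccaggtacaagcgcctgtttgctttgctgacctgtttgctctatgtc
C8g: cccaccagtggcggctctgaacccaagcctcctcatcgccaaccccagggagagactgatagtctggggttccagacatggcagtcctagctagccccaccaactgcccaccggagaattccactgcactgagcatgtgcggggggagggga
C8a holds it 107 bases before the start in the table, C8b in reverse at 206 bases, and C8g does not hold these letters in the window searched. The C8a and C8g sequences shown end 89 and 58 bases before the starts in the table. The other hepatocyte-made genes with a match are C4bp, F13b, Fga, Fgb, Hc and Vtn, each with a smaller change than C8a and C8b. Mbl1 and C6, which had the next largest falls, have an entry and no match. Cfp and C7, of other sources, hold it too. As above, a match is a description of the letters and not a site. Whether a match bears on the changes was not tested. The HNF4 element CAAAGTCCA occurs in 0 of the 29 and in 0.384% of all entries.

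Of the other terminal components, C6 fell by more than C8g and less than C8a and C8b. C6 (10422635), which joins C5b to start the pore, lay at 12.02 to 12.34 (median 12.19) with sh scramble and at 10.29 to 10.87 (median 10.61) with sh Grb14, and it fell by 1.60 (SE 0.082; 3.02-fold lower) (limma adjusted p = 3.61e-11). C9, which closes the ring of the pore, fell by 0.81 (SE 0.061) and Hc, the mouse gene for C5, by 0.72 (SE 0.051). C7, which hepatocytes are not the main source of, fell by 0.66 (SE 0.13), with levels of 7.16 to 7.88 (median 7.50) in sh scramble and 6.5 to 7.16 (median 6.86) in sh Grb14 livers. In all 7 genes of this group the mice of the 2 groups did not overlap, although the gap for C7 was narrow. Over all genes, 20.8% were lower without overlap. The 3 listed plasma inhibitors fell as well. C4bp, which inhibits the C4b convertase, lay at 12.62 to 12.76 (median 12.71) with sh scramble and at 11.91 to 12.27 (median 12.12) with sh Grb14, and it fell by 0.60 (SE 0.052; 1.51-fold lower). Vtn, vitronectin, which keeps the pore out of membranes, lay at 13.47 to 13.54 (median 13.49) with sh scramble and at 12.86 to 13.14 (median 12.98) with sh Grb14, and it fell by 0.51 (SE 0.039; 1.43-fold lower). Cfi, the protease that inactivates C3b and C4b, lay at 12.45 to 12.55 (median 12.46) with sh scramble and at 12.22 to 12.37 (median 12.32) with sh Grb14, and it fell by 0.18 (SE 0.034; 1.14-fold lower). Among these 3 the fall of Cfi was the smallest, and its groups were still separate (limma adjusted p = 3.06e-08, 4.98e-09 and 0.000202). Outside the list, Clu, clusterin, another plasma inhibitor of the pore, rose by 0.18 (SE 0.034), with groups that did not overlap (limma adjusted p = 0.000253). With arrays centred on the median of the genes tested its change was 0.03 and did not pass (limma adjusted p = 0.440). Clu, C5ar2 and Vsig4 are named after their values were seen.

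**Figure D3:**
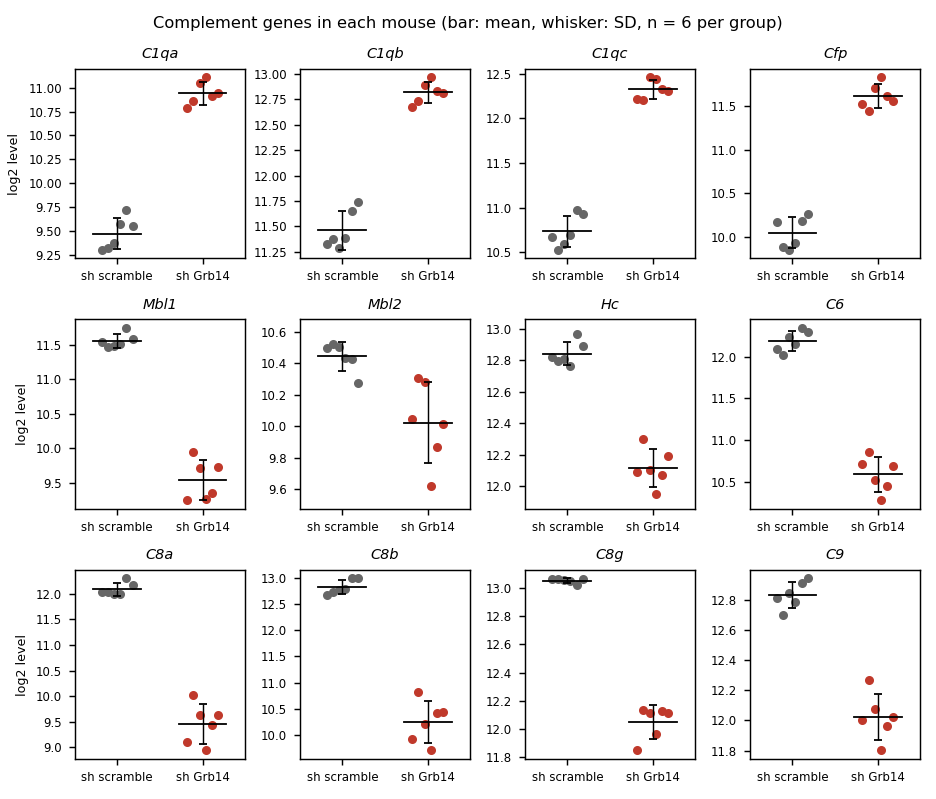
Log2 levels of 12 complement genes in each mouse, with the group mean (bar) and SD (whisker); each panel has its own vertical axis, which does not start at 0. C1qa, C1qb, C1qc and Cfp are higher in every sh Grb14 mouse, C8a, C8b, C8g, C6, C9, Hc and Mbl1 are lower in every one, and only Mbl2 overlaps.

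In the contact system, which starts clotting on charged surfaces, F12 fell, Kng1 fell slightly and F11 did not pass. F12 (10409449), factor XII, lay at 12.44 to 12.56 (median 12.48) with sh scramble and at 11.75 to 12.11 (median 11.91) with sh Grb14, and it fell by 0.57 (SE 0.054; 1.49-fold lower). Kng1, kininogen, lay at 13.27 to 13.42 (median 13.29) with sh scramble and at 12.99 to 13.11 (median 13.05) with sh Grb14, and it fell by 0.26 (SE 0.033; 1.2-fold lower). F11, factor XI, lay at 10.10 to 10.38 (median 10.22) and 10 to 10.46 (median 10.20), with a change of −0.02 (SE 0.064; limma adjusted p = 0.762). The 6 sh Grb14 mice spanned the whole sh scramble range of F11. Kng1 has a close paralogue, Kng2, so its probe set can share signal.

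F9 of the intrinsic pathway was grouped here with the genes of the extrinsic and common pathways. All 6 genes of this group fell, F7 and F9 the furthest, where 39.5% of all genes and 91.2% of the 34 hepatocyte-made genes fell. F7 (10570280), the factor that tissue factor activates, lay at 10.21 to 10.40 (median 10.32) with sh scramble and at 8.94 to 9.41 (median 9.21) with sh Grb14, and it fell by 1.13 (SE 0.068; 2.19-fold lower). F9 (10599826), the factor absent in haemophilia B, lay at 11.88 to 12.12 (median 11.95) with sh scramble and at 10.40 to 11.13 (median 10.92) with sh Grb14, and it fell by 1.13 (SE 0.096; 2.20-fold lower). These falls were separate in every mouse (limma adjusted p = 2.26e-10 and 1.96e-08). F5, the cofactor of factor Xa, fell by 0.76 (SE 0.043), F10, factor X itself, by 0.63 (SE 0.055) and F2, prothrombin, by 0.43 (SE 0.038). F3, tissue factor, which is not mainly hepatocyte-made, fell by 0.26 (SE 0.062), with levels of 7.64 to 7.93 (median 7.73) in sh scramble and 7.36 to 7.59 (median 7.50) in sh Grb14 livers. F7 and F10 are direct neighbours in the genome, and F7 fell by 0.50 (SE 0.047) more (exact permutation p = 0.00216; adjusted over 18 pairs p = 0.00354).

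Fibrinogen, the precursor of fibrin and an acute phase protein, fell little, and the subunits of factor XIII, which crosslinks fibrin, moved in opposite directions. Fgg fell by 0.40 (SE 0.03), Fgb by 0.22 (SE 0.028) and Fga by 0.17 (SE 0.049). Fga lay at 11.88 to 12.19 (median 12.02) and 11.74 to 11.93 (median 11.89), overlapping between groups. Its second probe set lay 0.088 higher in sh Grb14 livers, and with both averaged the change was −0.04 and did not pass (limma adjusted p = 0.529). Fgg fell by 0.17 (SE 0.022) more than Fgb and by 0.22 (SE 0.041) more than Fga (exact permutation p = 0.00216 each). F13b (10350425), the carrier subunit from hepatocytes, lay at 11.30 to 11.44 (median 11.42) with sh scramble and at 9.75 to 10.38 (median 10.11) with sh Grb14, and it fell by 1.27 (SE 0.079; 2.42-fold lower). F13a1 (10408693), the enzyme subunit from macrophages and platelets, lay at 6.38 to 6.75 (median 6.62) with sh scramble and at 7.80 to 8.0 (median 7.87) with sh Grb14, and it rose by 1.31 (SE 0.069; 2.48-fold). Every sh Grb14 mouse was below every sh scramble mouse in F13b and above every one in F13a1 (limma adjusted p = 3.29e-10 and 4.51e-11). Markers of platelets and megakaryocytes, beside which F13a1 can be read, had a mean log2 level between 7.30 and 7.49 in sh scramble and between 7.37 and 7.50 in sh Grb14 livers. Of their 6 measured genes of 10, 1 rose, 1 fell and 4 did not pass.

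The 3 fibrinogen genes lie side by side in the genome, and their upstream sequences from RefSeq's GRCm38.p6 are shown beside those of C8 as hepatocyte-made genes that fell little (chr3:83025943-83026152, plus strand; chr3:83049864-83050073, minus strand; chr3:83007514-83007723, plus strand). Capitals mark GTTAAT as above, GAGGAA as above, and TTGCNNAA, a C/EBP element, each on either strand; the marked matches do not overlap.
Fga: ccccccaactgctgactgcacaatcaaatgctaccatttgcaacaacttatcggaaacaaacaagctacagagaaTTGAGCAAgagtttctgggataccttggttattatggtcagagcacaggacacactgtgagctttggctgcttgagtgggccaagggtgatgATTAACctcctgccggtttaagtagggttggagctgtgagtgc
Fgb: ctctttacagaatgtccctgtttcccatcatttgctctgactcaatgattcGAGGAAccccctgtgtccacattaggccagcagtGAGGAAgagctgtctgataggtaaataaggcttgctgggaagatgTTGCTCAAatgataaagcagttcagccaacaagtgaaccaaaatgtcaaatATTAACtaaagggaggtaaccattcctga
Fgg: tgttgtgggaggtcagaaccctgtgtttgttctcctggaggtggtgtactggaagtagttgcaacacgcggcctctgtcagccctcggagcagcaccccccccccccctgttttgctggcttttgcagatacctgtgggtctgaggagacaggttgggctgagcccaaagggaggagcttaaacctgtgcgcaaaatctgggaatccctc
Fga and Fgb hold both the HNF1 half-site and the C/EBP element, and Fgg holds none of these letters in the window searched. The C/EBP element occurs in 7 of the 29 hepatocyte-made genes with an entry and in 9.56% of all entries. The other hepatocyte-made genes with it are C3, C9, F11, F9 and Klkb1, and of the myeloid genes Plaur holds it. These matches too describe letters and not sites.

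The anticoagulants split, with thrombomodulin higher and protein C lower. Thbd (10488378), the endothelial receptor that turns thrombin towards protein C, lay at 6.82 to 7.08 (median 6.96) with sh scramble and at 8.33 to 8.99 (median 8.59) with sh Grb14, and it rose by 1.64 (SE 0.11; 3.11-fold). Proc (10458016), protein C, lay at 11.52 to 11.75 (median 11.58) with sh scramble and at 10.77 to 10.99 (median 10.83) with sh Grb14, and it fell by 0.74 (SE 0.049; 1.67-fold lower). Both were separate in every mouse (limma adjusted p = 7.44e-10 and 8.28e-10). Serpind1, heparin cofactor II, fell by 0.35 (SE 0.05) and Serpinc1, antithrombin, by 0.30 (SE 0.037). Pros1 (10436456), protein S, the cofactor of protein C, lay at 9.88 to 10.22 (median 9.96) and 9.86 to 10.03 (median 9.99) and did not pass (change −0.05, SE 0.057; limma adjusted p = 0.487). Tfpi, the inhibitor of tissue factor, lay at 7.95 to 8.22 (median 8.03) and 8.14 to 8.28 (median 8.22) and passed narrowly at a change of 0.15 (SE 0.059; limma adjusted p = 0.0378). Tfpi lost the call without any of sh scramble mice 1, 2, 3 or 4 or sh Grb14 mice 1, 3, 4 or 6, with changes between 0.12 and 0.15. Of 8 endothelial markers, 3 rose and 5 fell, and their mean level was 9.49 to 9.69 in sh scramble and 9.46 to 9.61 in sh Grb14 livers.

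The largest change of all 48 genes was that of Plat. Plat (10570855), tissue plasminogen activator, which turns plasminogen into plasmin, lay at 6.39 to 6.61 (median 6.44) in sh scramble and 9.68 to 11.03 (median 10.75) in sh Grb14 livers and rose by 4.13 (SE 0.17; 17.5-fold). Plau (10413047), the urokinase-type activator, lay at 6.30 to 6.66 (median 6.40) with sh scramble and at 8.42 to 8.83 (median 8.59) with sh Grb14, and it rose by 2.18 (SE 0.08; 4.52-fold). Plaur (10550906), the urokinase receptor, lay at 6.78 to 7.29 (median 7.12) with sh scramble and at 8.33 to 8.66 (median 8.42) with sh Grb14, and it rose by 1.37 (SE 0.085; 2.59-fold). Every sh Grb14 mouse was above every sh scramble mouse in all 3 genes, and Plat showed the widest gap (limma adjusted p = 2.88e-12, 6.26e-13 and 3.27e-10). Plat rose by 1.95 (SE 0.20) more than Plau, and Plau by 0.80 (SE 0.093) more than Plaur (exact permutation p = 0.00216 each; adjusted over 18 pairs p = 0.00354). The plasma proteins they act on or with went the other way. Plg, plasminogen, fell by 0.38 (SE 0.037) and Serpinf2, the inhibitor of plasmin, by 0.33 (SE 0.029). Markers of stellate cells and fibroblasts, which can make plasminogen activators, had a mean level of 9.27 to 9.61 in sh scramble and 9.76 to 10.22 in sh Grb14 livers, with 5 of 8 higher, 2 lower and 1 not past the test. The part of these markers was not tested.

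**Figure D4:**
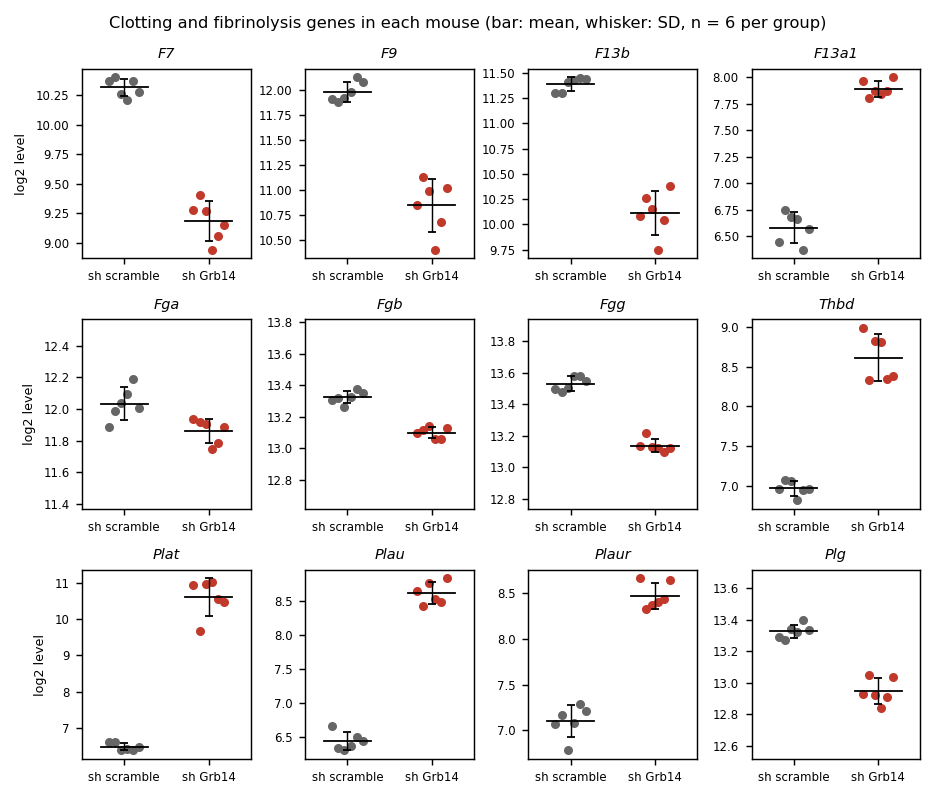
Log2 levels of 12 clotting and fibrinolysis genes in each mouse, with the group mean (bar) and SD (whisker); each panel has its own vertical axis, which does not start at 0. Plat spans 9.68 to 11.03 in sh Grb14 livers against 6.39 to 6.61 in sh scramble livers, F13a1 and F13b move in opposite directions, and Fga overlaps.

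Other genes of these pathways, listed by function, were called at shares near those of all genes. Larger changes were more frequent among them. Of 23 measured complement genes outside the list, 6 rose, 11 fell and 6 did not pass, and of 24 measured genes of coagulation and fibrinolysis, 7 rose, 11 fell and 6 did not pass. Together 74.5% passed (65.3% of all genes), with 27.7% higher (25.8%) and 46.8% lower (39.5%), and the median change was −0.10, as over all genes. The groups of mice did not overlap in 30 of these 47 genes (63.8%, against 41.2% of all genes). Changes of at least 2-fold were found in 9 that rose (6.37% of all genes did so) and 8 that fell (2.65%). The largest rises among complement genes were those of Itgax (2.41 (SE 0.08)), Itgb2 (2.41 (SE 0.059)) and Itgam (1.54 (SE 0.087)), the chains of complement receptors 3 and 4 on leukocytes, and of Cr2 (1.5 (SE 0.092)), a receptor for C3 fragments. Itgam is also 1 of the monocyte markers above. Cd59b fell by 1.5 (SE 0.096) and Cd59a, the other copy of this membrane inhibitor of C9, by 1.12 (SE 0.067). Whether the probe sets of these copies share signal was not tested. The collectins Colec11 and Colec10, lectins that work with MASP proteases, fell by 1.10 (SE 0.05) and 1.07 (SE 0.086).

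Among the other clotting genes, Anxa2 rose the most. Anxa2, annexin A2, part of a receptor for plasminogen and Plat, lay at 7.94 to 8.29 (median 8.05) with sh scramble and at 10.86 to 11.41 (median 11.19) with sh Grb14, and it rose by 3.08 (SE 0.087; 8.45-fold). Plgrkt, a plasminogen receptor, rose by 1.89 (SE 0.089), and Fgl2, a prothrombinase of macrophages, by 2.61 (SE 0.091). Procr, the endothelial protein C receptor, rose by 1.33 (SE 0.08) and Serpina5, the protein C inhibitor, by 1.38 (SE 0.13). Hrg, a plasma protein that binds plasminogen and heparin, fell by 1.31 (SE 0.11), and Proz, protein Z, by 1.05 (SE 0.046). Ggcx, the enzyme that carboxylates vitamin K-dependent factors, lay at 11.17 to 11.38 (median 11.26) with sh scramble and at 9.97 to 10.33 (median 10.13) with sh Grb14, and it fell by 1.15 (SE 0.057; 2.22-fold lower). Vkorc1, which recycles the vitamin and is named here after its values were seen, fell by 0.80 (SE 0.04). Of the 6 listed genes whose proteins need this step, F2, F7, F9, F10, Proc and Pros1, grouped after values were seen, 5 fell and Pros1 did not pass, where 39.5% of all genes and 91.2% of the 34 hepatocyte-made genes fell.

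Within the sh Grb14 group, the mice differed in the size of the pattern. Mouse 2, with the highest remaining Grb14 (8.44), had the highest value of its group in 23 of the 34 hepatocyte-made genes and the lowest in 6 of the 8 myeloid genes. Mouse 4, with the lowest Grb14 (8.02), had the lowest value in 26 of the 34. Genes of 1 array vary together, so counts of this kind are no repeated support. The same counts over all genes were not made. The mean level of the 34 genes was 11.62 in mouse 2, 11.53 in mouse 6, 11.50 in mouse 3, 11.43 in mice 1 and 5, and 11.29 in mouse 4, where Grb14 stood at 8.44, 8.29, 8.24, 8.22, 8.22 and 8.02. The myeloid mean was 10.29 in mouse 2, 10.52 in mouse 6, 10.55 in mouse 3, 10.48 in mouse 1, 10.51 in mouse 5 and 10.56 in mouse 4. It was lowest in mouse 2 and highest in mouse 4, and the mice between did not follow Grb14 in reverse. The mean of the hepatocyte markers was also highest in mouse 2 (13.01) and lowest in mouse 4 (12.82). Grb14 was measured on the same arrays and in the same hepatocytes, so more knockdown and less hepatocyte RNA cannot be told apart here. In the sh scramble mice, the order of the mean of the 34 genes was that of Grb14 except for mouse 4. Mouse 5 had the highest Grb14 (10.25) and the highest value in 21 of the 34 genes, but also the highest myeloid mean (8.98). Mouse 4, next in Grb14 (10.17), had the lowest mean of the 34 genes by a narrow margin, at 12.159. The means of mice 1, 2 and 3 lay between 12.160 and 12.167. Without sh Grb14 mouse 2, 12 of the 48 genes passed as higher and 34 as lower, and without mouse 4, 11 and 33.

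**Figure D5:**
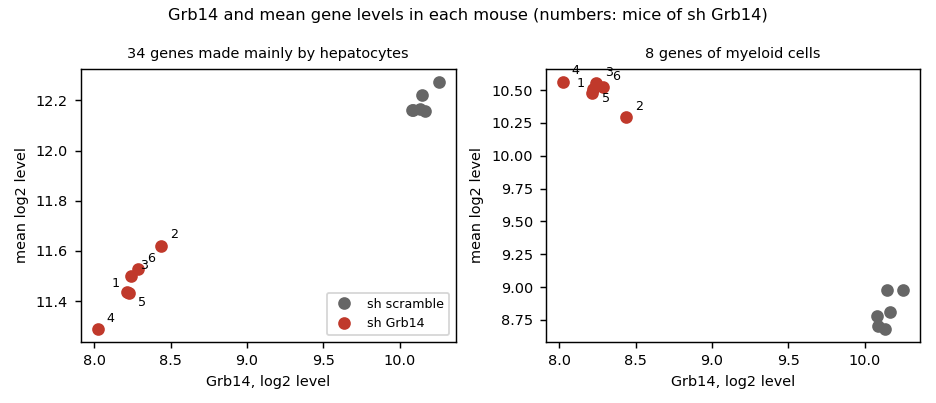
Grb14 log2 level (horizontal axis) and mean log2 level (vertical axis) of the 34 hepatocyte-made genes (left) and the 8 myeloid genes (right), with 1 point per mouse and numbers for the sh Grb14 mice. On the left, sh Grb14 mouse 2 stands at 11.62 and mouse 4 at 11.29; on the right, mouse 2 is the lowest of its group.

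Hepatocyte markers fell too, on average by less than the hepatocyte-made genes of the list. Their mean level, over 9 measured of 10, lay between 13.24 and 13.30 in sh scramble and between 12.82 and 13.01 in sh Grb14 livers. The difference was −0.34. Of the 9, 7 fell, from Apob by 0.13 (SE 0.026) to Tat by 1.38 (SE 0.13). Alb and the transferrin gene Trf did not pass. The mean of the 34 hepatocyte-made complement and clotting genes was 12.16 to 12.27 and 11.29 to 11.62, a difference of −0.72. Whether the array saturates at the levels of the brightest genes was not tested. Scaling moved the small changes: with arrays centred on the median of the genes tested, the median change of all genes went from −0.10 to −0.25 and of the genes that passed, 23% were then higher in place of 39.5%. Under that scaling 36 of the 48 genes were lower, 11 higher and 1 did not pass; C4b, F11 and Pros1 then passed as lower, and Tfpi did not pass.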

How the data were processed

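Liver RNA of 12 mice, 100 ng per sample by the labels' protocols, was measured on 1 array each. The authors deposited log2 values for 35556 probe sets, and the submitters' processing notes name RMA and Partek without versions. The probe annotation version and build are not given in the sources used here. Probe sets were named by the platform annotation: 21789 had 1 symbol, 1621 several and 12146 none listed. The probe set with the highest mean was taken per gene.

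The 19938 genes were fitted with limma 3.58.1 in R 4.3.3 (lmFit, eBayes with an intensity trend), all 12 arrays, no covariate, no filter, and p adjusted by Benjamini-Hochberg. The fit was tested on simulated data. Single values were tested by two-sided exact permutation over mice. Differences between the changes of 2 genes were tested on the log2 ratio in each mouse, for 18 pairs chosen after their values were seen. The labels give no batch, and the number of arrays limits the precision.

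Full values are given for all genes of role groups with at most 3 measured genes. In the other groups they are given for the 2 largest changes, those of at least 2-fold and those not past the test. The 8 largest changes in each list of further pathway genes are given with SE, and with levels for Anxa2 and Ggcx only. The genes, lists and motifs were chosen with earlier results of these data known. Alternatives were 2 other eBayes settings, centring, quantile normalization, averaged probe sets, a filter on dim genes, a fold threshold and leaving out each mouse. Promoters are RefSeq's, for 39 of the 51 genes, and bases inside a gene's annotated span are not printed.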

Additional observations from a re-analysis of the deposited data

Results flagged for a closer look

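In 65 genes and 2 groups each, 130 sets of 6 values were searched for a mouse far from the other 5, by a gap to the nearest mouse above 0.625 of the range. Chance gives about 1 in 20 such sets, and 4 were found. C3ar1, the C3a receptor, had its lowest sh Grb14 value in mouse 2, at 10.42, where the next was 10.96. Fgg, the fibrinogen gamma chain, had its highest sh Grb14 value in the same mouse, at 13.22, where the next was 13.13. In sh scramble mouse 5, C8g, the gamma chain of C8, was lowest at 13.02 in a group whose other mice lay between 13.05 and 13.06. Kng1, kininogen, was highest in that mouse at 13.42, where the next was 13.32. None of these 4 values lay inside the range of the other group.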

How the results depend on the processing

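Requiring at least 1.5-fold moved the count of genes past the test from 13012 to 3742, of the complement and coagulation genes from 45 to 28 (17 lower, 11 higher) and of the further pathway genes from 35 to 23. Under the other alternatives these counts stayed within 1.5 times. Leaving out each mouse in turn gave 11877 to 13497 genes in all, 44 to 46 of the 48 genes (11 to 12 higher, 33 to 34 lower) and 33 to 36 further genes, and Grb14 changes of −1.95 to −1.86. F11 changed sign among these, between −0.0721 and 0.019, without passing. Tfpi did not pass with arrays centred on their medians (0.14) or on the median of the genes tested (0.00063), nor after quantile normalization (0.033). Centring on the median of the genes tested was chosen after seeing the data. No paired analysis was possible because the labels give the mice no number shared between groups. No detection call was made, so changes from dim levels, such as those of Plat, Plau and C5ar1 in sh scramble livers, can be understated.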
